A study of Rattus norvegicus with 6 samples.

Results

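The genes described here are 8 that carry the signal of a death receptor or of damaged mitochondria to the caspases, the proteases of apoptosis: Fas, Fadd, Casp8, Cflar, Ripk1, Ripk3, Apaf1 and Casp9. They were taken by gene symbol from a count table of 22574 symbols, in which all 8 were found, and all 8 had enough counts to be among the 12591 genes tested. The libraries were made from RASMCs, primary smooth muscle cells grown from the aorta of male Sprague-Dawley rats. In 3 libraries, labelled CitH3+dsDNA, the cells had received citrullinated histone H3 (H3CIT, 0.03 μM) and double-stranded DNA (dsDNA, 300 ng/ml), both constituents of extracellular traps, and in 3 control libraries they had received bovine serum albumin (BSA). The length of exposure in the RNA-seq experiment was not given in the sources used here. Replicate wells of the in vitro experiments came from cells of the same rat, so p-values measure the spread between wells and library preparations and not between animals. The depth lay between 17573905 and 18742395 counts per library.

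When its ligand binds, the receptor Fas gathers the adaptor Fadd, which in turn gathers procaspase-8, the product of Casp8. Cflar encodes a relative of that caspase which lacks protease activity and limits its activation. Active caspase-8 cleaves downstream caspases and the BH3 protein Bid, which leads to the release of cytochrome c from mitochondria. Cytochrome c binds Apaf1, and the resulting apoptosome activates caspase-9. Where caspase-8 is blocked, the kinases Ripk1 and Ripk3 can form a complex that starts necroptosis through Mlkl. Apoptosis of smooth muscle cells is known for weakening the fibrous cap of atherosclerotic plaques.

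The transcripts of the 2 caspases among the 8 genes rose about 4-fold after H3CIT+dsDNA, while no call was made for the receptor, the adaptors, the kinases or Cflar. Casp8 was 4.22-fold higher (95% confidence interval 3.31 to 5.37) and Casp9 was 3.92-fold higher (95% confidence interval 3.48 to 4.40). In the edgeR quasi-likelihood test, with Benjamini-Hochberg adjustment over all genes tested and a call at an adjusted p under 0.05, 2 of the 8 genes were called, both higher and none lower. Over all 12591 genes tested, 2.2% were called, 1.94% as higher and 0.262% as lower. The 8 genes were chosen with earlier results of these data known, so their share is not independent evidence. The median log2 fold change was 0.041 over the 8 genes and -0.0013 over all genes tested. The 2 called genes were also those whose CPM after TMM scaling did not overlap between the groups, a property that 19.1% of all genes tested had. In bulk RNA fewer cells of a type and less RNA per cell cannot be told apart, and neither can a rise in every cell and a larger rise in some.

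**Figure D1:**
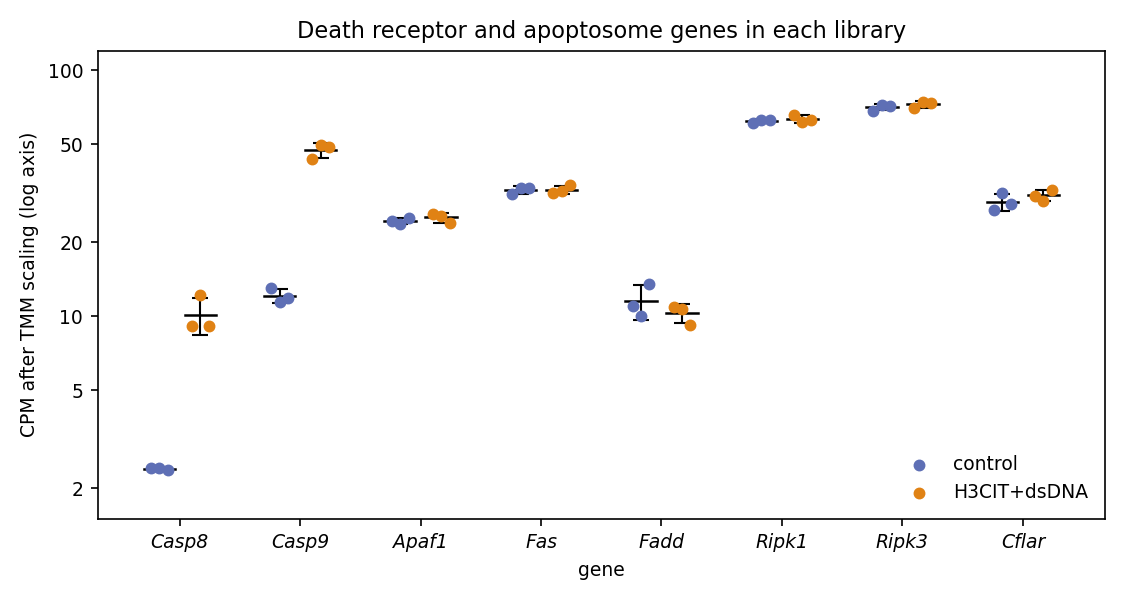
CPM after TMM scaling (log axis) of each of the 8 genes in the 3 control and 3 H3CIT+dsDNA libraries. Each point is 1 library, and bars give the mean and SD (n = 3 per group). Casp8 and Casp9 sit apart between the groups, and the points of the other 6 genes overlap.

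Casp8, the initiator caspase of death receptors, read 165, 214 and 166 counts with H3CIT+dsDNA against 43, 45 and 44 with BSA. In CPM (mean ± SD, n = 3) this is a rise to 10.1 ± 1.74 from 2.40 ± 0.0280. All H3CIT+dsDNA libraries lay above all controls, and replicate 2 of the H3CIT+dsDNA group was the highest. The log2 fold change was 2.08 (SE 0.16, edgeR adjusted p = 2.45e-06), and 32 of the 244 genes called higher had a larger one. The 3 control counts are consecutive whole numbers with an SD of 1.0 count, where counting noise alone at a mean of 44.0 counts gives an SD of 6.63. Among 814 tested genes with a control mean between 30 and 60 counts, 2.33% had such a run of consecutive control counts, against 40% of the 25 called genes in that range. The part of this pattern in the rise of Casp8 was not tested. Leaving out any library kept this log2 difference (H3CIT+dsDNA minus control, as estimated by edgeR) within 1.92 to 2.15.

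Casp9, the initiator caspase of the mitochondrial route, read 789, 879 and 886 counts with H3CIT+dsDNA against 232, 212 and 221 with BSA. In CPM (mean ± SD, n = 3) this is a rise to 47.4 ± 3.41 from 12.1 ± 0.807. The lowest H3CIT+dsDNA library lay far above the highest control, and neither group held a run of consecutive counts. The log2 fold change was 1.97 (SE 0.078, edgeR adjusted p = 2.44e-09), and 42 genes called higher had a larger one. Casp9 was read among the genes of a heat map that the study drew from these same libraries, so its direction is not independent evidence. The ratio of Casp9 to Casp8 counts within a library was 4.74 ± 0.616 (SD, n = 3) after H3CIT+dsDNA and 5.04 ± 0.343 (SD, n = 3) in controls, and the groups overlapped, so that both caspases rose by a similar factor.

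Apaf1, the scaffold of the apoptosome on which caspase-9 is activated, read 474, 451 and 433 counts with H3CIT+dsDNA against 435, 440 and 465 with BSA. The groups overlapped, at a log2 difference of 0.047 (SE 0.066, edgeR adjusted p = 0.806) and a 95% confidence interval of 0.936-fold to 1.14-fold. The ratio of Casp9 to Apaf1 counts was 1.67, 1.95 and 2.05 in the H3CIT+dsDNA libraries and 0.533, 0.482 and 0.475 in the controls. The transcript of the protease thus gained on that of its scaffold in every H3CIT+dsDNA library, by a ratio of means of 3.80. Ratios within a library do not depend on the scaling, and they were left as values, since an exact permutation test of 3 against 3 libraries, two-sided, cannot give a p under 0.1.

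Fas, the receptor at the head of the pathway, read 574, 570 and 619 counts with H3CIT+dsDNA against 559, 616 and 619 with BSA. At 32.7 ± 1.26 CPM (SD, n = 3) against 32.6 ± 1.13 CPM (SD, n = 3) the groups overlapped. Its 95% confidence interval ran from 0.915-fold to 1.10-fold (log2 difference 0.0032, SE 0.060, no call in edgeR), a range that does not reach the rise seen for either caspase.

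Fadd, the adaptor between Fas and procaspase-8, read 198, 189 and 167 counts with H3CIT+dsDNA against 196, 186 and 252 with BSA. Control replicate 3 was the highest and the groups overlapped, at a log2 difference of -0.17 (SE 0.12, edgeR adjusted p = 0.594) and an interval of 0.740-fold to 1.07-fold. This was the widest interval among the 6 genes without a call. The ratio of Casp8 to Fadd counts was 0.987 ± 0.150 (SD, n = 3) after H3CIT+dsDNA and 0.212 ± 0.0343 (SD, n = 3) in controls, without overlap.

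Cflar, which encodes the inhibitor c-FLIP, read 561, 517 and 593 counts with H3CIT+dsDNA against 483, 588 and 529 with BSA. Control replicate 2 exceeded 2 of the 3 H3CIT+dsDNA counts, at a log2 difference of 0.09 (SE 0.073, edgeR adjusted p = 0.623), with an interval of 0.954-fold to 1.19-fold. The ratio of Casp8 to Cflar counts was 0.294, 0.414 and 0.280 with H3CIT+dsDNA against 0.0890, 0.0765 and 0.0832 with BSA. The caspase therefore gained on its inhibitor at the transcript level by a ratio of means of 3.97. In the rat assembly GRCr8, Casp8 and Cflar lie beside each other on chromosome 9 with a single noncoding gene between them. Trak2, the next tested gene on the other side of Casp8, had a log2 fold change of 0.054 (SE 0.044, edgeR adjusted p = 0.631), so that Casp8 was the sole tested gene called among Ndufb3, Cflar, Casp8 and Trak2. These neighbours were chosen for display after the values of Casp8 had been seen.

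The kinases of necroptosis were the most counted of the 8 genes. Ripk1 read 1196, 1084 and 1139 counts with H3CIT+dsDNA against 1089, 1163 and 1167 with BSA, which overlap, at a log2 difference of 0.028 (SE 0.044, edgeR adjusted p = 0.831). Ripk3 had counts of 1272, 1305 and 1335 against 1219, 1344 and 1332, which also overlap, at a log2 difference of 0.035 (SE 0.044, edgeR adjusted p = 0.782). Their intervals, 0.955-fold to 1.09-fold and 0.959-fold to 1.09-fold, were the narrowest of the 8. The ratio of Ripk3 to Ripk1 counts was 1.15 ± 0.0736 (SD, n = 3) and 1.14 ± 0.0183 (SD, n = 3).

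The rest of the pathway was read from 6 lists with 57 genes, of which 49 were tested. In edgeR's test 7 of the 49 were called, all higher (14.3%, against 2.2% over all genes tested), and 42 were not called. The lists were chosen with earlier results of these data known, so this share is not independent evidence. Without control replicate 1, or without control replicate 2, 4 of these calls were left (8.16%), those of Bid, Htra2, Parp1 and Aifm1. Over all genes tested, these 2 fits called 184 of 12745 and 192 of 12743. The number called in the lists ran from 4 to 10 over the 15 alternatives. The calls lay among caspases and their partners, mitochondrial factors, inhibitors of apoptosis and caspase substrates, with no call among ligands, receptors, receptor-bound adaptors or necroptosis genes. At 2.2% over all genes, lists of 6, 21 and 3 tested genes can be without a call by chance, and the lists were not tested against each other. The median log2 fold change over the 49 genes was -0.0044.

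**Figure D2:**
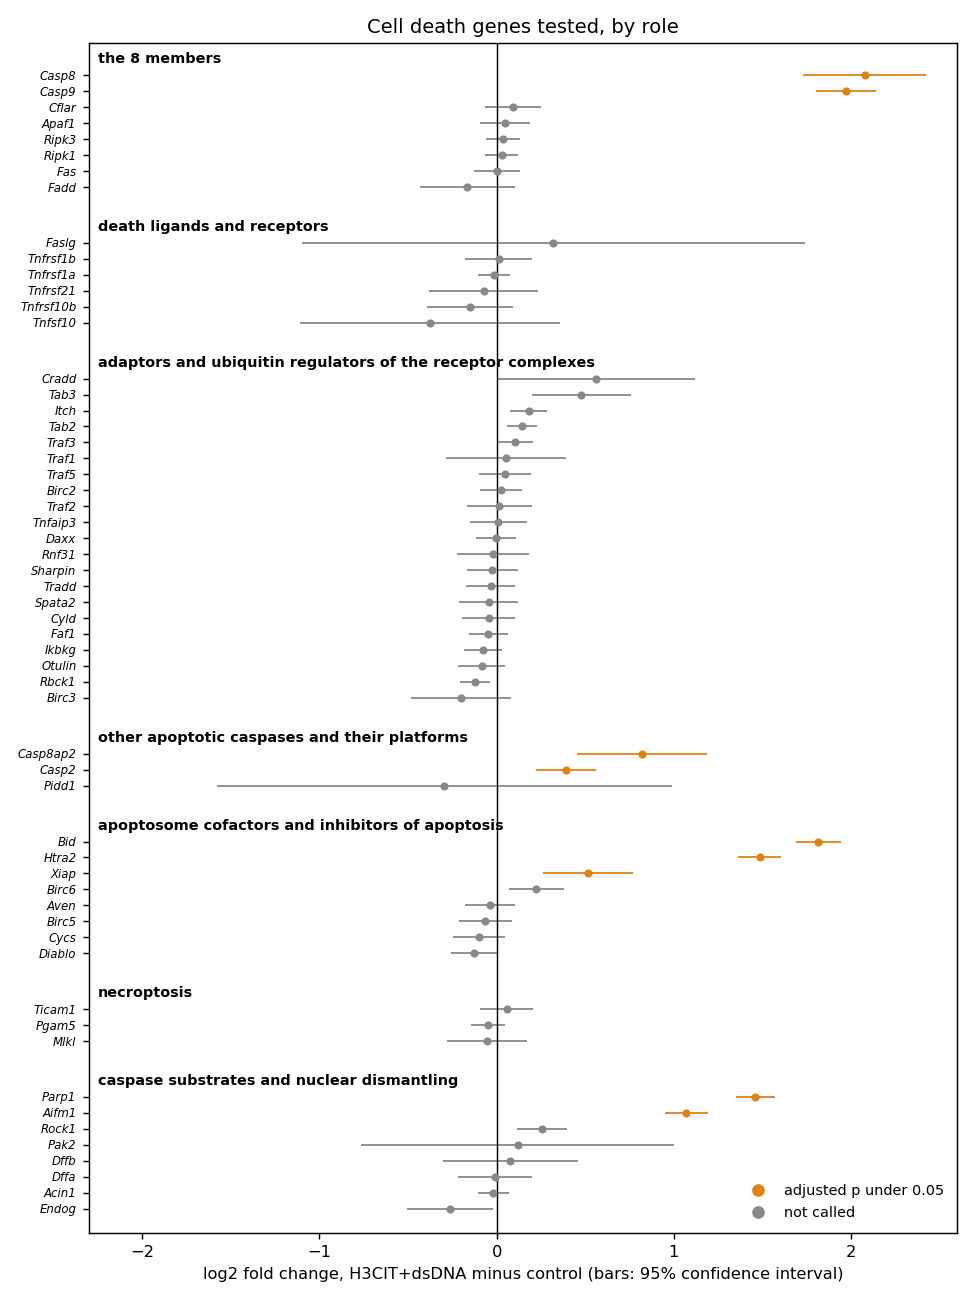
Log2 fold change (H3CIT+dsDNA minus control, horizontal axis) with its 95% confidence interval for the 8 genes and for the 49 tested genes of the other lists, from edgeR (n = 3 libraries per group). Orange points have an adjusted p under 0.05 and gray points do not. Called genes lie in the caspase, apoptosome and substrate lists, and no ligand, receptor, adaptor or necroptosis gene was called, though some intervals among the adaptors exclude 0.

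Of 10 death ligands and receptors, 6 were tested and none was called. Tnfrsf1a, the main TNF receptor, read 2405, 2338 and 2368 counts with H3CIT+dsDNA against 2497, 2451 and 2374 with BSA (log2 fold change -0.015, SE 0.042). Tnfrsf10b, the receptor of TRAIL, had counts of 261, 282 and 207 against 258, 287 and 305 (log2 fold change -0.15, SE 0.11). The ligands were scarce. Faslg, which encodes the Fas ligand, had 15, 1 and 11 counts against 6, 12 and 4, and Tnfsf10, which encodes TRAIL, had 17, 17 and 21 against 13, 33 and 27. Tnf was listed at 0 in every library except control replicate 3, which had 69 counts, and was not tested. The interval of Tnfsf10, 0.463-fold to 1.28-fold, does not reach a rise like that of Casp8, while that of Faslg, 0.466-fold to 3.34-fold, is wide.

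Of the 23 adaptors and ubiquitin regulators of the receptor complexes, 21 were tested and none was called, with a median log2 fold change of -0.0044. Tradd, the adaptor of the TNF receptor, had a log2 fold change of -0.034 (SE 0.064), and Traf2, which joins it there, 0.014 (SE 0.084). Birc2, a ubiquitin ligase that acts on Ripk1, read 629, 617 and 624 counts with H3CIT+dsDNA against 623, 632 and 622 with BSA. Its paralog Birc3 had 97, 95 and 95 against 106, 115 and 115, a log2 difference of -0.20 (SE 0.13, edgeR adjusted p = 0.540). The deubiquitinases Tnfaip3 and Cyld had log2 fold changes of 0.0090 (SE 0.074) and -0.046 (SE 0.068). In the list 5 of the 21 tested genes, Birc3 among them, did not overlap between the groups, against 19.1% of all genes tested, and none of the 5 was called. Tab3 had a log2 difference of 0.48 (SE 0.13, edgeR adjusted p = 0.0893), with an adjusted p of 0.0333 to 0.326 over the alternatives. For Itch it was 0.18 (SE 0.048, edgeR adjusted p = 0.0819), with 0.0443 to 0.351. Tab2 was at 0.14 (SE 0.039, edgeR adjusted p = 0.0977) and Rbck1 at -0.12 (SE 0.038, edgeR adjusted p = 0.156), and no alternative called either. Estimates in the list ran from -0.20 to 0.56, below those of Casp8 and Casp9.

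Of 4 further caspases and platform genes, 3 were tested and 2 were called, both higher. Casp8ap2, whose product binds caspase-8 and also takes part in histone mRNA processing, rose by 0.82 on the log2 scale (SE 0.17, edgeR adjusted p = 0.0222). Casp2, the initiator caspase activated on the Pidd1 platform, rose by 0.39 (SE 0.078, edgeR adjusted p = 0.0182). Casp6, a further caspase, was listed at 0 in all 6 libraries, where a count of 0 allows up to 3 counts, or 0.17 CPM in the smallest library, for counting error alone.

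The calls of the smaller rises depended on which libraries were present. Without H3CIT+dsDNA replicate 1, control replicate 1 or control replicate 2, the adjusted p of Casp2 was 0.137, 0.0758 and 0.0739 from edgeR. With a block by replicate number it was 0.0570, over a range of 0.00936 to 0.137 in all alternatives. Without H3CIT+dsDNA replicate 2 or 3 or control replicate 1 or 2, that of Casp8ap2 was 0.0941, 0.0869, 0.0897 and 0.0912, over a range of 0.00535 to 0.0941. Both kept a positive log2 fold change in all 15 alternatives.

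Of the 8 apoptosome cofactors and inhibitors of apoptosis, all were tested and 3 were called, all higher. Bid, the substrate that links caspase-8 to mitochondria, read 1228, 1194 and 1138 counts with H3CIT+dsDNA against 343, 333 and 355 with BSA. The groups stood far apart, at a log2 difference of 1.82 (SE 0.059, edgeR adjusted p = 4.18e-10). Htra2, a mitochondrial protease that counteracts inhibitors of apoptosis once released, had 3433, 3115 and 3455 against 1211, 1122 and 1311, a log2 difference of 1.48 (SE 0.056, edgeR adjusted p = 1.62e-09). The heat map of the study shows Htra2 as well. Cycs, which encodes cytochrome c, had a log2 fold change of -0.10 (SE 0.067, edgeR adjusted p = 0.547). Diablo, whose product acts on the same inhibitors as that of Htra2, had -0.13 (SE 0.060, edgeR adjusted p = 0.376).

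Xiap, a direct inhibitor of caspase-9, read 391, 308 and 353 counts with H3CIT+dsDNA against 197, 274 and 280 with BSA. It rose by 0.52 on the log2 scale (SE 0.12, edgeR adjusted p = 0.0385), less than Casp9, and the ratio of Casp9 to Xiap counts was 2.46 ± 0.420 (SD, n = 3) against 0.914 ± 0.229 (SD, n = 3). The call of Xiap was lost without H3CIT+dsDNA replicate 1 (adjusted p = 0.225 from edgeR), H3CIT+dsDNA replicate 3 (0.118), control replicate 1 (0.119) or control replicate 2 (0.0663). It was lost as well with a block by replicate number (0.107), over a range of 0.00559 to 0.225 in all alternatives. Its log2 fold change was positive in all of them.

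None of the 3 tested necroptosis genes of the 4 listed was called. Mlkl, the pore-forming substrate of Ripk3, read 176, 169 and 174 counts with H3CIT+dsDNA against 162, 183 and 204 with BSA (log2 fold change -0.052, SE 0.10). Zbp1, a nucleic acid sensor that can engage Ripk3, never exceeded 5 counts and was not tested.

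Of the 8 caspase substrates and genes of nuclear dismantling, 2 were called, both higher. Parp1, a DNA repair enzyme cleaved by caspases, read 2899, 2932 and 2922 counts with H3CIT+dsDNA against 1121, 1100 and 1021 with BSA, a log2 difference of 1.46 (SE 0.050, edgeR adjusted p = 6.05e-10). Aifm1, which encodes the mitochondrial flavoprotein AIF, had 1789, 1967 and 1878 against 879, 980 and 880, a log2 difference of 1.07 (SE 0.056, edgeR adjusted p = 3.78e-08). Both stood apart between the groups, and the heat map of the study also shows Aifm1. Dffa, the inhibitor of the caspase-activated DNase, had counts of 340, 319 and 314 against 337, 285 and 375 and overlapped.

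The tested genes most like Casp8 over the 6 libraries, by Pearson correlation of log2 CPM, were Fance (r = 0.9997), Cdkn2a (0.9972) and Chek2 (0.9969). Those most like Casp9 were Sfr1 (0.9992), Ang (0.9992) and Casp1 (0.9990). With 6 libraries in separate groups, a shared difference between the groups raises r, and by how much was not tested. Among the genes tested, 43 had an r over 0.99 with Casp8 and 76 with Casp9. In controls Fance had counts of 110, 112 and 111, Cdkn2a 33, 34 and 32, and Chek2 56, 55 and 54, all runs of consecutive whole numbers as in Casp8, and Casp1 had 34, 33 and 35. Their counts after H3CIT+dsDNA were 335, 402 and 340 for Fance, 114, 147 and 133 for Cdkn2a, and 224, 242 and 203 for Chek2. Of the 53 tested genes among the 8 and the pathway lists with at least 20 counts on average in each group, Casp8 alone had such a run in controls and none had one after H3CIT+dsDNA.

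Promoters were at hand from RefSeq, assembly GRCr8, for 7 of the 8 genes, Casp8 being without an entry. In the 250 bases before the start, searched on both strands, the GC box GGGCGG was found in 5 of the 7 (Casp9, Apaf1, Fas, Fadd and Ripk1), against 30.5% of 33469 promoters. TGANTCA, an AP-1 pattern, was found in Fas and Ripk3 and in 6.34% of all. Of the other patterns searched, a loose NF-kB pattern matched 5 of the 7 and 42.3% of all, and an interferon response pattern matched none of the 7 and 3.41% of all. These are matches of letters and not binding sites. Casp9, which rose, its partner Apaf1, which was not called, and Bid, which rose, are shown with GC boxes in capitals, each 5′ to 3′ on the strand of the gene. Casp9 (chr5:159391824-159392073, plus strand) holds 3 GC boxes, Apaf1 (chr7:27466773-27467022, minus strand) holds 2, and Bid (chr4:155808320-155808569, minus strand) holds 3, so that genes with and without a call share the motif. Parp1 and Casp2, both called, also hold it. Aifm1, which was called, and Cflar and Ripk3, which were not, hold none. For Htra2, Xiap and Casp8ap2, which were also called, no promoter was at hand.
Casp9: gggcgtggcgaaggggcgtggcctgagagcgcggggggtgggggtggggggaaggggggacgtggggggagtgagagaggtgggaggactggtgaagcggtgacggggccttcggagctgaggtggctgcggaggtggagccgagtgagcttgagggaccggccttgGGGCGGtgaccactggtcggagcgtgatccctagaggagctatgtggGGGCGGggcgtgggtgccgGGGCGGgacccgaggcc
Apaf1: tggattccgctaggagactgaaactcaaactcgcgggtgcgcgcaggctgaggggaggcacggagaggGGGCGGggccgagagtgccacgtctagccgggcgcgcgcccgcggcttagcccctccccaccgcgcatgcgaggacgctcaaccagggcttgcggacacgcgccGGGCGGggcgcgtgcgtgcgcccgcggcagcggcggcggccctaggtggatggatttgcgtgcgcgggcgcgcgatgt
Bid: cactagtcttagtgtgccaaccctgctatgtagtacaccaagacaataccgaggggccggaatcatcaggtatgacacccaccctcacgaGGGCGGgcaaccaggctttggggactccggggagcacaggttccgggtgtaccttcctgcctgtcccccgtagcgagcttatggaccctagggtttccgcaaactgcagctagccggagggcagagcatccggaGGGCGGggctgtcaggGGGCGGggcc

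The label of smooth muscle was checked against markers. All 7 smooth muscle markers were tested and Acta2 was the most abundant, at 3115 CPM after H3CIT+dsDNA and 5025 CPM in controls. The markers summed to 5706, 6088 and 6262 CPM after H3CIT+dsDNA and 8935, 9207 and 8466 CPM in controls. In edgeR 4 of the 7 were called lower (57.1%, against 0.262% of all genes tested) and none higher. Acta2 fell by 0.69 on the log2 scale, Tagln by 0.40, Cnn1 by 1.57 and Smtn by 0.21. The remaining markers were not called, with log2 fold changes of 0.061 for Myh11 (SE 0.034), -0.060 for Lmod1 (SE 0.041) and -0.062 for Des (SE 0.040). The call of Smtn was held in 7 of 15 alternatives and was lost, for instance, without control replicate 2 (adjusted p = 0.202 from edgeR, range 0.0176 to 0.202). It was lost as well without control replicate 1 (0.115) and without H3CIT+dsDNA replicate 1 (0.176), 2 (0.107) or 3 (0.106). The 4 genes that fell moved with the rise of the caspases, and their part in it was not tested.

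No tested marker of another cell type was called, and many of these markers had too few counts to be tested. Of the 9 macrophage markers 6 were tested. All 9 summed to 74.3, 74.1 and 76.3 CPM after H3CIT+dsDNA and 76.7, 78.6 and 75.2 CPM in controls, led by Cd14. Over the 6 libraries Csf1r had 296 to 374 counts, Tyrobp 28 to 40, Adgre1 21 to 35, Cd68 10 to 19 and Lyz2 1 to 17. The leukocyte genes Ptprc, Itgam and Cd163 had at most 1 count in any library. Of the 7 endothelial markers 4 were tested. All 7 summed to 8.44, 8.91 and 8.76 CPM against 9.92, 9.81 and 10.5 CPM, led by Cdh5. Tie1 had 38 to 61 counts, Pecam1 9 to 18, Vwf 7 to 15 and Tek 3 to 12. Cldn5 was at 0 and Kdr at most at 1 count. Of the 5 fibroblast markers, led by Pi16, 2 were tested, and all summed to between 2.64 and 4.14 CPM against 2.59 to 4.93 CPM. None of the 5 lymphocyte markers, led by Nkg7, was tested, and they summed to at most 0.882 CPM and 1.01 CPM, with Ms4a1 at 0.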

How the data were processed

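RNA of 6 cultures was measured by RNA-seq. The authors made stranded mRNA libraries, mapped reads to rat Rnor6.0 with TopHat (TopHat2 2.1.1 in the submitters' processing notes, which also name Cufflinks 2.2.1), and used HTSeq for counting. The deposited values are raw counts of 22574 symbols. The strand setting of the counting was not given in the sources used here, so overlapping or antisense genes can share reads. Here edgeR 4.0.16 (R 4.3.3) was used on these counts, with filterByExpr for low counts, TMM for scale (CPM) and its two-sided quasi-likelihood F test, adjusted by Benjamini-Hochberg over 12591 genes. Standard errors are the coefficient divided by the square root of F, and 95% intervals use the t quantile of the fit. Library totals were 17573905 to 18742395 counts, and edgeR's common BCV was 0.0585. No pair of replicates agreed within counting noise (chi-square per gene at least 3.31).

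The genes named are all 8 members, the called genes of each pathway list, defining genes fixed with the lists, the 3 genes most correlated with each called member, markers of cell types, neighbours of Casp8, and adaptor genes whose groups do not overlap. The members and lists were chosen with earlier results of these data known. Alternatives were other scalings, DESeq2 1.42.0, limma-voom (limma 3.58.1), other filters, robust dispersions, a block by replicate number, and leaving out any library. The fits were first run on simulated counts with known changes. Ratios, neighbours, consecutive counts and promoter motifs were examined after the counts had been seen. Some genes of the lists are not reported here, and list counts leave them out.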

Additional observations from a re-analysis of the deposited data

How the results depend on the processing

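Casp8 and Casp9 were called, and the other 6 of the 8 genes not called, in all 15 alternatives, 120 values in all. The log2 fold change of Casp8 lay between 1.92 and 2.15 (adjusted p 2.95e-21 to 3.76e-05) and that of Casp9 between 1.93 and 2.03 (3.17e-86 to 7.22e-07). Of 434 values of 29 other named genes, 410 kept their side of the threshold and 21, of Xiap, Casp2, Casp8ap2 and Smtn, were no longer past it, none with a change of sign. The other 3 passed it, Tab3 with robust dispersions (0.0333) and Itch with those (0.0471) or library size alone (0.0443). The number of genes called, 277, ran from 164 (without H3CIT+dsDNA replicate 1) to 357 (without control replicate 3) with each library left out, and the number called higher, 244, from 147 to 300. These were 184 and 154 without control replicate 1. With the replicate block 212 genes were called, 182 of them higher. The labels do not say whether a number pairs libraries. Those with the same number had deviations correlated at -0.0458, 0.00452 and 0.0355, and those with different numbers at -0.0462 to 0.042. As both kinds of pair gave similar small values, these correlations do not decide whether wells were paired. Under the block the adjusted p of Xiap was 0.107, of Casp2 0.0570 and of Smtn 0.0981, all from edgeR. Smtn was also not called with library size alone (0.0546) or limma-voom (0.0583). The cause was not tested. Faslg had few counts and a wide interval, and Tnf, Zbp1 and Casp6 did not pass the filter on counts.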
